A study of Mus musculus with 30 samples.

Results

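The 10 genes described here belong to the Nrf2 antioxidant response and were followed through the CT-26 and Colon 26 tumor models. They were the regulators Nfe2l2 and Keap1, the quinone and heme enzymes Nqo1 and Hmox1, the glutathione synthesis genes Slc7a11, Gclc and Gclm, the thiol reductases Txnrd1 and Srxn1, and the NADPH enzyme G6pdx. The genes were listed by name and matched by symbol to Ensembl identifiers, and all 10 of the 10 were found among the 53431 genes of the table. CT-26 and Colon 26 are established carcinoma lines of the BALB/c mouse colon. RNA was sequenced from 3 cultures per line and, for each model, from 4 tumors at each nominal size of 100, 400 and 800 mm3, which gave 30 libraries in 8 groups. The tumors grew from cells placed under the skin of the right flank in female mice of the BALB/c strain, whose ages are not given in the sources used here, and they also held host cells. Dosing with antibodies is described in the protocol text, but no library's own label names an antibody, and each tumor was grouped by model and size alone. Each model rests on a single cell line, so that a difference between the models is a difference between these lines.

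Nrf2, the product of Nfe2l2, is a transcription factor that Keap1 binds and hands over for degradation in unstressed cells. When oxidants or electrophiles modify Keap1, Nrf2 escapes, pairs with small Maf proteins and binds antioxidant response elements near genes for glutathione synthesis, thioredoxin reduction, NADPH supply and detoxification. Much of the control of Nrf2 is therefore at the protein level, which mRNA does not measure. In tumors the pathway is known for protecting cells from oxidative stress and from some drugs.

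The core of the antioxidant response element reads TGACNNNGC, where N is any base. It was searched on both strands in the 250 bases before each RefSeq start site, since these windows show where the letters of the element stand next to the genes described. RefSeq windows of GRCm38.p6 were held for 8 of the 10 genes, not for Hmox1 and Gclc, and 4 of the 8 had a match, against 3338 of all 32851 windows (10.2%), 3112 of 27025 genes (11.5%), and 9 of 47 other genes of the pathway (19.1%). A match is a description of the letters and not a binding site, and no match says only that the letters are not in this window. The 4 matched stretches are shown 5′ to 3′ on the strand of the gene, with the element in capitals.
Nfe2l2, chr2:75704885-75704913, minus strand, 240 bases before the start: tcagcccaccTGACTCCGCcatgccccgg
Gclm, chr3:122245413-122245441, plus strand, 134 bases before the start: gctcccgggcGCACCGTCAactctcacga
Txnrd1, chr10:82859104-82859132, plus strand, 92 bases before the second start: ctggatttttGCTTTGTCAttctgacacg
G6pdx, chrX:74428919-74428947, minus strand, 57 bases before the start: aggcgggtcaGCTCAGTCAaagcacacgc
The element lay on the strand of the gene in Nfe2l2, which encodes the factor itself, and on the opposite strand in the other 3. None of the 4 overlapped TGACTCA, the related AP-1 motif.

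Levels are given as CPM, which are counts relative to the total of the library, scaled by TMM factors over the 30 libraries, and levels of different genes are compared only as the FPKM of the authors, which divides by gene length. A gene was called differentially expressed (DE) where its adjusted p was 0.1 or less and its log2 fold change reached 1 in either direction in edgeR's quasi-likelihood test over all genes. "Passed the adjusted p alone" means that the fold threshold was not applied. All 10 genes passed the filter on low counts in every comparison. Counts summed to 21384697 to 39722554 per library, and the Colon 26 cultures, with 36042918 to 39722554, were deeper than any CT-26 culture (at most 27856353). The library codes in the labels run in separate series for the tumors, the CT-26 cultures and the Colon 26 cultures, so that library series cannot be told apart from the line in culture, nor from the step between culture and tumor. In bulk tumors, fewer cells of a type and less RNA per cell cannot be told apart. Summed macrophage markers (9 genes) were 10.6 to 73.6 CPM in the cultures. In the tumors they were 324.8 to 2194.7 CPM, so that tumor values mix host and cancer cells. Their medians at 100, 400 and 800 mm3 were 1561.5, 1085.8 and 1328.9 CPM in CT-26. In Colon 26 they were 1913.1, 1266.7 and 1755.6 CPM, with ranges that overlapped those of CT-26. Leukocyte medians were also higher in Colon 26 at each size, but the ranges overlapped. At 100 mm3 these ranges were 454.7 to 612.3 CPM in Colon 26 and 361.5 to 667.5 CPM in CT-26. Endothelial medians were lower in Colon 26, with ranges that overlapped at 100 and 400 mm3. They did not overlap at 800 mm3 (99.2 to 138.6 CPM in Colon 26 against 153.0 to 177.1 CPM in CT-26). The part of this mixture in the differences between the models was not tested. Of 8 epithelial markers, 3 never exceeded 3 counts in the cultures of CT-26 (Epcam, Cdh1 and Vil1) and 4 never did in those of Colon 26 (Epcam, Cdh1, Krt18 and Krt19), although the lines are labelled as colon carcinoma. Others of the list were present, Krt20 at 24.7 CPM and Krt18 at 15.7 CPM on average in CT-26, and Cdx2 at 6.22 CPM and Krt20 at 5.68 CPM in Colon 26.

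In culture the 2 lines differed mostly in the quinone and heme enzymes. Nqo1 was far higher in Colon 26 and Hmox1 far lower, while the regulators and glutathione genes differed by less than a factor of 2. In tumors, Slc7a11 was lower in Colon 26 at every size, and Gclc, Gclm, Txnrd1 and Srxn1 were lower by smaller steps.

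**Figure D1:**
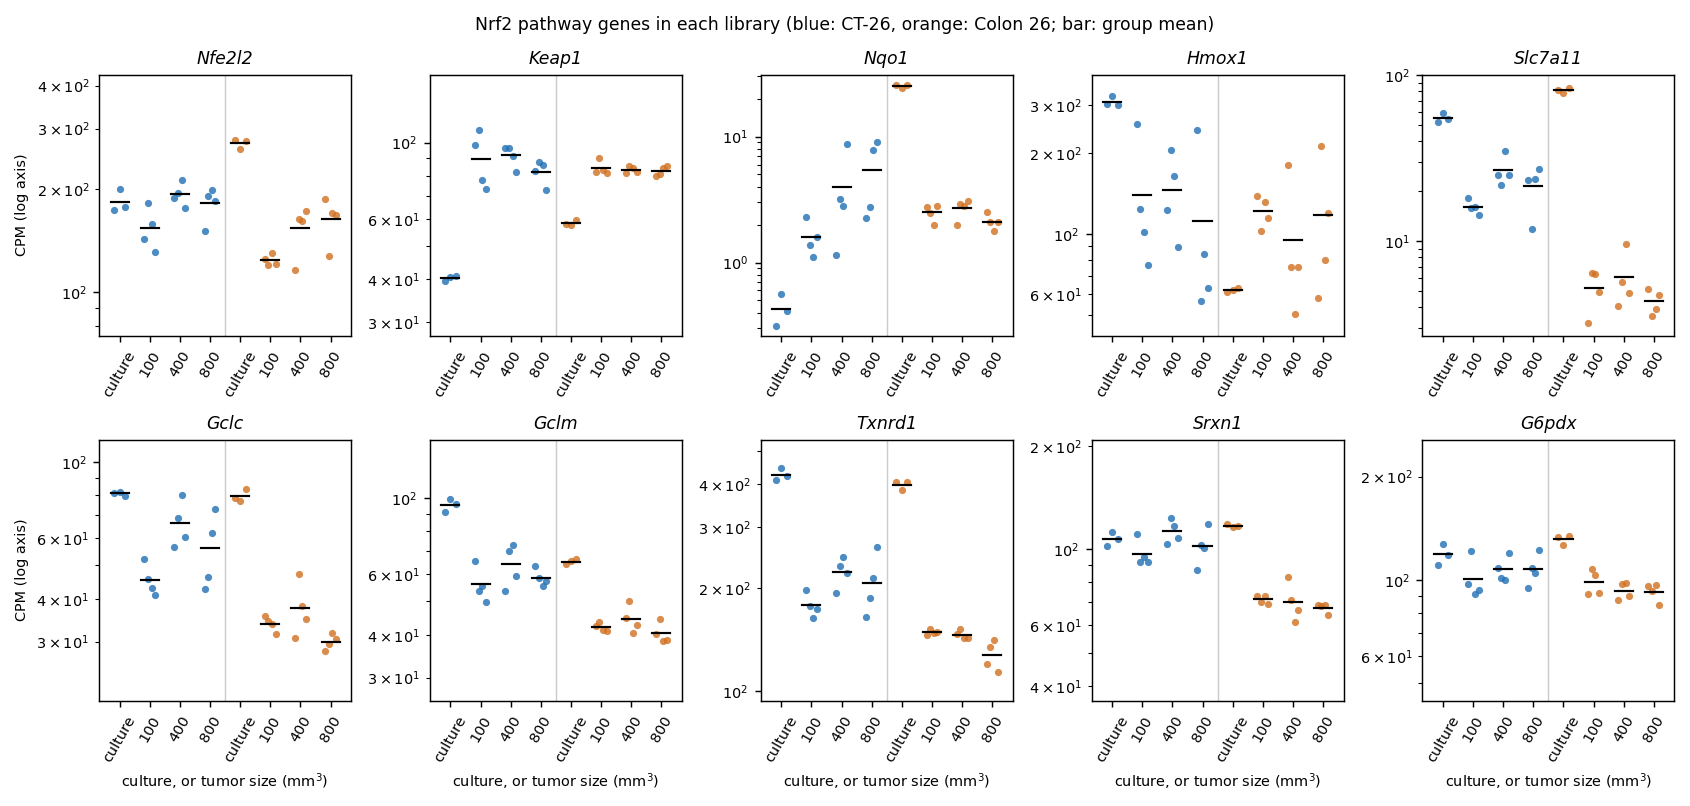
CPM of the 10 genes in each of the 30 libraries (log axis, a scale of its own for each gene), with CT-26 in blue and Colon 26 in orange. Bars are group means. Nqo1 spans 0.315 to 25.9 CPM, while G6pdx spans 84.7 to 134.6 CPM.

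Nqo1 (chr8:107388225-107403206, minus strand of GRCm38, as for all genes) encodes NAD(P)H quinone dehydrogenase, which reduces quinones to hydroquinones, and is a classic Nrf2 target. Its level in CT-26 cultures was 0.315, 0.56 and 0.411 CPM, and in Colon 26 cultures it was 25.9, 24.5 and 25.5 CPM. The groups did not overlap, and every Colon 26 culture was far above every CT-26 culture. The difference was 5.81 ± 0.12 on the log2 scale (SE, 3 against 3, adjusted p = 2.5e-16), a fold of 56.2. The CT-26 level rested on as few as 7 counts in a library.

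In tumors the Nqo1 levels of the models were closer, and their groups overlapped at every size. CT-26 tumors of 100 mm3 had 2.28, 1.39, 1.11 and 1.58 CPM, and Colon 26 tumors had 2.78, 2.46, 1.98 and 2.79 CPM. The Colon 26 tumors were higher by 0.65 ± 0.24 (adjusted p = 0.049), under the fold threshold. At 400 mm3 the levels were 1.14, 3.2, 2.83 and 8.68 CPM in CT-26 and 1.97, 2.94, 2.8 and 3.09 CPM in Colon 26. CT-26 held both the highest and the lowest library, and the log2 difference of -0.55 ± 0.51 did not pass (adjusted p = 0.42). Without the CT-26 library of 8.68 CPM this difference was 0.17, and that library had a skeletal muscle sum of 201.8 CPM against at most 0.929 CPM in the others of its group. At 800 mm3 the CT-26 tumors had 2.27, 2.76, 7.76 and 9.08 CPM and the Colon 26 tumors 2.51, 2.09, 1.77 and 2.08 CPM. Colon 26 was lower by a log2 change of -1.38 ± 0.42 (adjusted p = 0.019), DE, although the lowest CT-26 tumor was below the highest Colon 26 tumor. The tumor of 9.08 CPM also had a keratinocyte marker sum of 74.7 CPM against 3.43 to 4.16 CPM in the others of its group, and the highest epithelial sum of the group (251.5 CPM). The tumor of 7.76 CPM had a skeletal muscle sum of 182.2 CPM against 8.08 to 36.0 CPM in the other 3. Other tumors with high skeletal muscle sums had low Nqo1. Colon 26 replicate 1 at 400 mm3 had a sum of 2267.2 CPM with Nqo1 at 1.97 CPM. Colon 26 replicate 2 at 100 mm3 had a sum of 1182.4 CPM with Nqo1 at 2.46 CPM. In CT-26 at 100 mm3, replicates 4 and 2 had sums of 450.7 and 215.6 CPM with Nqo1 at 1.58 and 1.39 CPM. The part of these cells in the Nqo1 value was not tested. Leaving out each library in turn, the difference lay between -1.62 and -1.02, the latter without the tumor of 9.08 CPM. The change of the model difference from 100 mm3 did not pass at 400 mm3 (-1.23, adjusted p = 0.66) or at 800 mm3 (-2.04, adjusted p = 0.14).

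Hmox1 (chr8:75093621-75100589, plus strand) encodes heme oxygenase 1, which opens the heme ring to biliverdin, iron and carbon monoxide, and it also answers to heme itself. CT-26 cultures held 304.3, 325.4 and 299.8 CPM, and Colon 26 cultures held 60.8, 61.9 and 62.9 CPM. The groups were far apart, with a log2 difference of -2.36 ± 0.03 (adjusted p = 2.7e-18), 5.13-fold lower in Colon 26. In CT-26 culture Hmox1 had the highest FPKM of the 10 genes, 198.2, against 39.0 in Colon 26 culture, where Txnrd1 was the highest at 136.9.

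The tumor values of Hmox1 overlapped at every size. They were 255.2, 124.2, 101.9 and 76.7 CPM in CT-26 and 138.4, 102.7, 131.8 and 114.9 CPM in Colon 26 at 100 mm3. They were 123, 205.6, 164.2 and 89.4 CPM against 180.1, 75.3, 50.4 and 75.7 CPM at 400 mm3, and 243.8, 56.3, 84.5 and 62.9 CPM against 57.9, 212.4, 80.3 and 119.6 CPM at 800 mm3. Single libraries stood far above the rest of their group, and none of the 3 differences passed (log2 -0.20, -0.59 and 0.06, with SE of 0.33, 0.41 and 0.52). Without the Colon 26 tumor of 180.1 CPM, the difference at 400 mm3 was -1.12 (adjusted p = 0.014), past both thresholds. That library also had the highest skeletal muscle sum of all (2267.2 CPM over 4 genes) and a macrophage sum of 2142.4 CPM against 1028.9 to 1284.0 in the others of its group. At 800 mm3 the tumors of 243.8 and 212.4 CPM also had the highest macrophage sums of their groups (1482.1 and 2015.7 CPM). Other tumors differed. The CT-26 tumor of 255.2 CPM had a muscle sum of 0.747 CPM and a macrophage sum of 1444.0 CPM. The CT-26 tumor of 124.2 CPM had the highest macrophage sum of all (2194.7 CPM). The Colon 26 tumor of 102.7 CPM had a muscle sum of 1182.4 CPM. The part of these cells in the Hmox1 value was not tested.

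**Figure D2:**
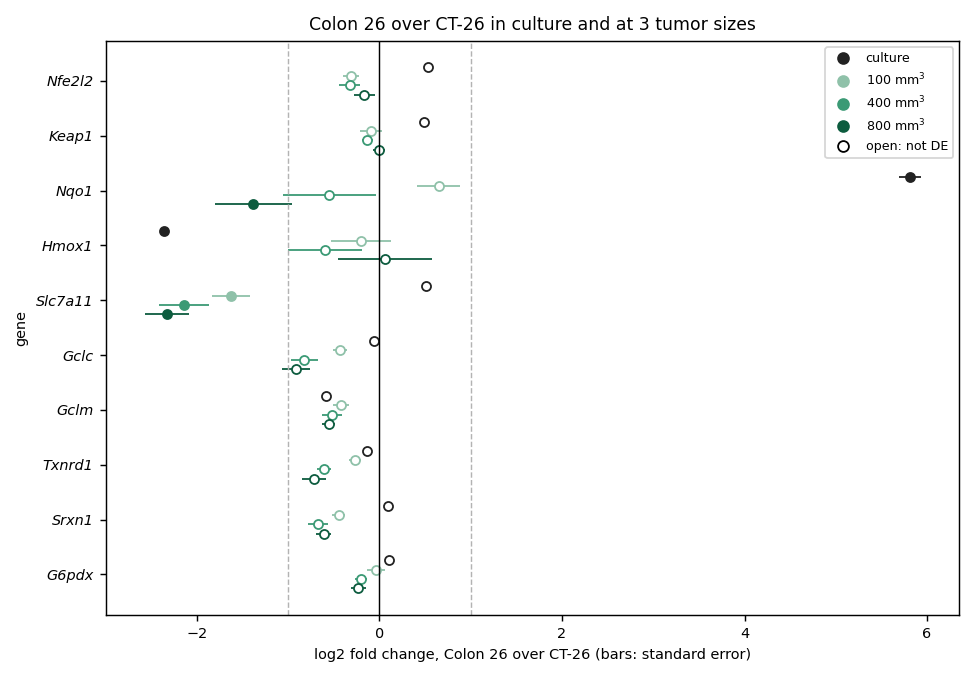
Log2 fold change of Colon 26 over CT-26 for the 10 genes in culture and at the 3 tumor sizes, with standard errors. Filled points are DE, open points are not, and dashed lines mark a log2 fold change of 1 in each direction. The 3 tumor points of Slc7a11 lie at -1.63, -2.14 and -2.32, while its culture point lies at 0.52.

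Counted over the list, 2 of the 10 genes were DE in culture (background 22.9% of 14334 genes), Nqo1 higher and Hmox1 lower. Slc7a11 alone was DE at 100 mm3, where the background was 13.2%, and again at 400 mm3, where it was 14.3%. At 800 mm3, where it was 14.1%, Slc7a11 and Nqo1 were DE, both lower. Shares of 20.0%, 10.0%, 10.0% and 20.0% of the list are near these backgrounds. By the adjusted p alone, 6 genes were higher and 3 lower in Colon 26 culture (background 82.6%, of which 42.2% higher and 40.4% lower). In tumors 1 was higher and 6 lower at 100 mm3, with a background of 56.5%, and 0 were higher and 7 lower at 400 mm3 (52.2%) and at 800 mm3 (59.4%). For genes lower by the adjusted p alone the backgrounds were 30.1%, 26.3% and 31.0%, and for genes higher they were 26.4%, 25.9% and 28.3%. The DE backgrounds by direction were 10.6% higher and 12.3% lower in culture, and 6.17%, 6.48% and 6.5% higher against 7.06%, 7.79% and 7.62% lower in tumors of 100, 400 and 800 mm3. The median log2 difference of the list was 0.10 in culture and -0.29, -0.57 and -0.58 in tumors, beside 0.01, 0.00, 0.03 and -0.01 over all genes tested.

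Slc7a11 (chr3:49892526-50443614, minus strand) encodes xCT, the cystine importer that feeds cysteine to glutathione synthesis. In culture the CT-26 libraries had 52.3, 59.5 and 54.7 CPM and the Colon 26 libraries 81.9, 78.1 and 84 CPM. Colon 26 was higher by 0.52 ± 0.04 (adjusted p = 2.1e-09), without overlap. In tumors of 100 mm3 the order was the opposite, with 18.1, 15.9, 16.1 and 14.4 CPM in CT-26 and 3.23, 6.38, 6.3 and 4.93 CPM in Colon 26. Every Colon 26 tumor lay under every CT-26 tumor, by a log2 difference of -1.63 ± 0.21 (adjusted p = 0.00025). At 400 mm3 the CT-26 tumors held 24.9, 21.8, 35.1 and 24.9 CPM and the Colon 26 tumors 4.04, 5.68, 9.58 and 4.84 CPM, a log2 difference of -2.14 ± 0.27 (adjusted p = 0.00033). At 800 mm3 the values were 23.2, 11.9, 23.5 and 27.3 CPM against 5.16, 3.54, 3.9 and 4.75 CPM, a log2 difference of -2.32 ± 0.24 (adjusted p = 3.2e-05) or 5.01-fold. The 12 Colon 26 tumors all lay below the 12 CT-26 tumors, the highest at 9.58 and the lowest at 11.9 CPM.

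Its partner chain Slc3a2, a member of the wider list, was higher in Colon 26 culture by 0.27 ± 0.03 (adjusted p = 4e-07) and lower in tumors by log2 -0.33, -0.43 and -0.45 (adjusted p = 0.0018, 0.005 and 0.014). These are changes of the same sign as those of Slc7a11 and under the fold threshold.

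Gclc (chr9:77754535-77794485, plus strand) and Gclm (chr3:122245557-122270732, plus strand) encode the catalytic and the modifier subunit of glutamate cysteine ligase, the first enzyme of glutathione synthesis. Gclc did not pass in culture, with 81.4, 81.9 and 79.7 CPM in CT-26 and 78.8, 77 and 83.2 CPM in Colon 26, a log2 difference of -0.06 ± 0.04 (adjusted p = 0.14). In tumors of 100 mm3 it was 52.2, 45.7, 43.1 and 41 CPM in CT-26 and 35.6, 34.5, 33.8 and 31.6 CPM in Colon 26. All Colon 26 values were below all CT-26 values, and the same held at 400 and 800 mm3. The log2 differences were -0.43 ± 0.08, -0.82 ± 0.14 and -0.91 ± 0.15 (adjusted p = 0.002, 0.0018 and 0.00064), none of them past a log2 change of 1.

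Gclm was lower in Colon 26 in culture too, 64.1 to 66.3 CPM against 90.9 to 99.3 CPM (log2 -0.58 ± 0.03, adjusted p = 4.9e-11). In tumors of 100, 400 and 800 mm3 the log2 differences were -0.42, -0.52 and -0.55, each past the adjusted p alone (0.0033, 0.0051 and 0.00013) and each without overlap. Exons of Gclm overlap those of Gm17494 and of the pseudogene Gm6061, which held at most 74 and 12 counts in a library against at least 1017 for Gclm.

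Txnrd1 (chr10:82833951-82897712, plus strand) encodes cytosolic thioredoxin reductase and Srxn1 (chr2:152105516-152111376, plus strand) sulfiredoxin, which restores over-oxidized peroxiredoxins. Txnrd1 had 411, 445.6 and 423.4 CPM in CT-26 cultures and 405.8, 386 and 406.1 CPM in Colon 26 cultures, a log2 difference of -0.13 ± 0.03 (adjusted p = 0.00051) with no overlap. In tumors its values were 163.1 to 197.4, 193 to 246.3 and 164.4 to 263.1 CPM in CT-26 at 100, 400 and 800 mm3. In Colon 26 they were 145.8 to 151.4, 142.5 to 151.5 and 113.6 to 140.8 CPM, so that the models did not overlap at any size. The log2 differences were -0.26 ± 0.07, -0.60 ± 0.08 and -0.72 ± 0.14 (adjusted p = 0.0085, 0.0004 and 0.0013). Srxn1 differed by 0.09 ± 0.03 in culture (adjusted p = 0.0085). In tumors it was lower in Colon 26 by log2 -0.45 ± 0.07, -0.67 ± 0.11 and -0.61 ± 0.08 (adjusted p = 0.00073, 0.0011 and 0.00018), also without overlap, at 69.4 to 73 CPM against 91.6 to 110.4 CPM at 100 mm3.

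The regulators Nfe2l2 (chr2:75675513-75704641, minus strand) and Keap1 (chr9:21229730-21239361, minus strand) stayed under the fold threshold in all 4 model comparisons. Nfe2l2 had 173.7, 199.4 and 176.9 CPM in CT-26 and 277.3, 260.9 and 276.5 CPM in Colon 26 cultures, higher by 0.53 ± 0.04 (adjusted p = 9.7e-10). In tumors it was lower in Colon 26 at 100 and 400 mm3 by log2 -0.31 ± 0.09 and -0.33 ± 0.12 (adjusted p = 0.021 and 0.047), without overlap, and at 800 mm3 the difference was -0.17 ± 0.12 (adjusted p = 0.25). Keap1 was higher in Colon 26 culture, 57.7 to 59.3 CPM against 39.6 to 40.9 CPM (0.49 ± 0.04, adjusted p = 1.7e-09). Its tumor differences were -0.09, -0.13 and -0.00 with SE of 0.12, 0.06 and 0.07, and none passed. Exons of Keap1 overlap the antisense gene Gm16754, which held at most 186 counts in a library against at least 879 for Keap1, and strand handling is not given in the sources used here.

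G6pdx (chrX:74409483-74429194, minus strand), glucose-6-phosphate dehydrogenase of the pentose phosphate route to NADPH, was the flattest of the 10 by its model differences. They were 0.11, -0.04, -0.20 and -0.23 in culture and at 100, 400 and 800 mm3, and those of culture, 400 and 800 mm3 passed the adjusted p alone (0.0091, 0.043 and 0.034). Exons of G6pdx overlap those of Ikbkg on the opposite strand, so the sharing of reads is uncertain. Ikbkg held 1287 to 4768 counts in a library, against 2267 to 5237 for G6pdx. The retrocopy of G6pdx, G6pd2, had 0 counts in all libraries.

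Over the list, the groups of the 2 models did not overlap for 8 of the 10 genes in culture (79.1% of all genes tested), 6 at 100 mm3 (47.4%), 7 at 400 mm3 (43.2%) and 5 at 800 mm3 (48.0%).

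From culture to tumor the 2 models moved in opposite directions only in Nqo1 and Hmox1. The other genes of the list, Slc7a11 and Txnrd1 among them, moved in the same direction in both. In CT-26, 5 of the 10 genes were DE between culture and 100 mm3 (background 32.2%), of which 2 rose (22.2%) and 3 fell (10.1%). In Colon 26, 6 were DE (background 26.9%), of which 1 rose (20.8%) and 5 fell (6.11%). By the adjusted p alone all 10 genes changed in each model, 2 up and 8 down, against 75.5% and 78.9% of all genes. Of all genes 40.8% were up and 34.7% down in CT-26, and 42.6% up and 36.3% down in Colon 26. These contrasts compare cultures with mixtures of cancer and host cells, and they share their libraries with the model comparisons in culture and at 100 mm3.

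Nqo1 rose in CT-26 by 1.86 ± 0.33 (adjusted p = 0.0011) and fell in Colon 26 by 3.26 on the log2 scale (SE 0.11, adjusted p = 2.1e-08), a fold of 9.56. The change of the model difference was -5.16 ± 0.31 (interaction term, adjusted p = 3.5e-08). Hmox1 fell in CT-26 by 1.16 on the log2 scale (SE 0.35, adjusted p = 0.017) and rose in Colon 26 by 1.06 ± 0.09 (adjusted p = 5.5e-06), with an interaction of 2.17 ± 0.41 (adjusted p = 0.00066). Without 1 CT-26 tumor of 76.7 CPM the CT-26 change was -0.97, short of the fold threshold.

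Slc7a11 fell by 1.79 in CT-26 (SE 0.08, adjusted p = 1.1e-06) and by 3.88 in Colon 26 (SE 0.18, adjusted p = 1.3e-07), 3.46-fold and 14.7-fold. The fall was larger in Colon 26, with an interaction of -2.13 ± 0.22 (adjusted p = 4.3e-06). Txnrd1 fell by 1.27 in CT-26 and by 1.35 in Colon 26 (adjusted p = 2.1e-06 and 4.8e-09), and the difference between these falls was -0.12 ± 0.07 (adjusted p = 0.20). Keap1 rose in CT-26 by 1.14 ± 0.14 (adjusted p = 0.00016) and was 0.61 ± 0.05 higher in Colon 26 tumors (adjusted p = 2.9e-06), under the fold threshold. Nfe2l2 and Gclc were DE in Colon 26, where they fell by 1.05 (SE 0.04) and 1.15 (SE 0.05) on the log2 scale, while their CT-26 changes were -0.26 and -0.84.

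Of the 10 interaction terms, those of Nqo1, Hmox1 and Slc7a11 were DE (background 17.6%), and 7 passed the adjusted p alone (51.0%). Gclm, Txnrd1 and G6pdx did not pass. Groups did not overlap between culture and 100 mm3 for 7 genes in CT-26 (71.6%) and for all 10 in Colon 26 (75.1%).

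**Figure D3:**
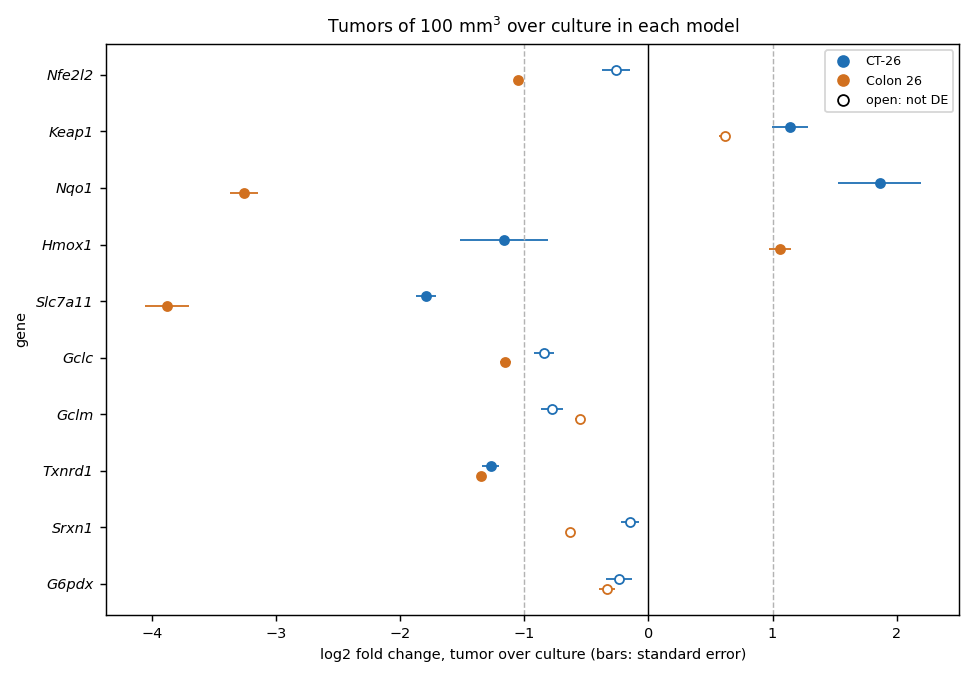
Log2 fold change of tumors of 100 mm3 over culture in CT-26 (blue) and Colon 26 (orange) for the 10 genes, with standard errors. Filled points are DE and open points are not. Nqo1 lies at 1.86 and -3.26 and Hmox1 at -1.16 and 1.06, on opposite sides of 0, and Slc7a11 at -1.79 and -3.88.

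Growth from 100 to 400 or 800 mm3 brought no DE call to the list where only the libraries compared entered the edgeR fit. In CT-26 no gene of the table was DE at 400 or 800 mm3 against 100 mm3 (0% of 15104 and 15298 genes). Even so, 3356 and 1610 genes had an unadjusted p under 0.05. DESeq2 called 150 and 39, and edgeR with all 30 libraries in one fit called 379 and 92. The count of 0 at 400 mm3 depended on single libraries and on the filter. Without replicate 4 of CT-26 at 400 mm3, 335 genes were DE, and 144 without replicate 2 at 100 mm3. With all libraries kept, 64 were DE with at least 10 counts in every library and 6 without a filter. None of the 10 was among the genes called in these settings. At 800 mm3 leaving out a library gave 0 to 2 DE genes. In Colon 26, 0.0131% and 1.33% of genes were DE at 400 and 800 mm3, none of the 10 among the 2 and 205 genes called. DESeq2 called 42 and 309 genes there, none of the 10. Without replicate 1 of Colon 26 at 400 mm3 the 2 genes became 391, again with none of the 10, and leaving out a library at 800 mm3 gave 150 to 290. Among the 10, Nqo1 had the largest growth changes in CT-26, 1.31 ± 0.55 at 400 mm3 (adjusted p = 0.21) and 1.78 ± 0.47 at 800 mm3 (adjusted p = 0.42). DESeq2 and a fit over all 30 libraries called these 2 changes DE. Slc7a11 was at 0.72 ± 0.16 and Gclc at 0.54 ± 0.12 at 400 mm3 in CT-26 (adjusted p = 0.11 each), both without overlap of the groups.

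In Colon 26, Nfe2l2 passed the adjusted p alone at 800 mm3 (0.38 ± 0.10, adjusted p = 0.07, background 6.67%). Groups did not overlap for 2 of the 10 genes in CT-26 at 400 mm3 (13.3%), 0 at 800 mm3 (4.9%), 0 in Colon 26 at 400 mm3 (6.33%) and 2 at 800 mm3 (12.8%), where Txnrd1 and Srxn1 were lower. The comparisons of 400 and 800 mm3 within a model share the tumors of 100 mm3. The model difference changed from 100 mm3 by no DE amount for any of the 10 at 400 mm3 (0% of 16077 genes) or at 800 mm3 (0.0308% of 16238). With an unadjusted p under 0.05 there were 1254 and 2031 genes, and DESeq2 called 33 and 114, with Nqo1 among the latter at -2.03 (adjusted p = 0.018). Leaving out a library gave 0 DE genes at 400 mm3, other than 29 without replicate 4 of CT-26 at 400 mm3, and 2 to 128 at 800 mm3, the highest without replicate 1 of CT-26 at 800 mm3.

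By group means Nqo1 was ordered from Colon 26 culture (25.3 CPM) through CT-26 tumors of 800 and 400 mm3 (5.47 and 3.96 CPM), the Colon 26 tumors (2.12 to 2.70 CPM) and CT-26 tumors of 100 mm3 (1.59 CPM) to CT-26 culture (0.429 CPM). Only the top and the bottom step were without overlap of neighbours. Slc7a11 fell into steps without overlap from Colon 26 culture (81.4 CPM) to CT-26 culture (55.5 CPM), to the CT-26 tumors (16.1 to 26.7 CPM) and to the Colon 26 tumors (4.34 to 6.04 CPM). Hmox1 had neighbours without overlap only below CT-26 culture (309.9 CPM). Keap1 had 6 tumor groups that overlapped in sequence (82.2 to 91.7 CPM), above Colon 26 culture (58.3 CPM) and CT-26 culture (40.4 CPM).

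Per gene length, the tumors held Hmox1 (62.8 to 89.0 FPKM as group means), Nfe2l2 (51.6 to 75.1 FPKM) and Txnrd1 (42.6 to 71.9 FPKM) as the most abundant of the 10. Nqo1 (1.02 to 3.44 FPKM) and Slc7a11 (0.489 to 2.79 FPKM) were the least abundant. For Gclm the length implied by FPKM and count varied by 21.1% between libraries, so its FPKM is less exact.

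Within the 12 tumors of a model, Pearson's r of log2 CPM between Gclc and Txnrd1 was 0.96 in CT-26 and 0.58 in Colon 26, and between Txnrd1 and Srxn1 it was 0.89 and 0.40. Nfe2l2 and Hmox1 had r of -0.17 and -0.76. These values pool 3 sizes and share depth and the mixture of cells, and are given as a description. Over all 30 libraries, the genes most like Nqo1 among 10942 were Ncapg2, a condensin subunit (r = 0.909), Cc2d2a of the cilium (r = 0.886) and Ptbp1, a splicing regulator (r = 0.87). The genes most like Hmox1 were Ctsd, the lysosomal protease cathepsin D (r = 0.834), Tbkbp1 (r = 0.786) and Ampd3, an AMP deaminase (r = 0.759). The 30 points share the culture and tumor groups.

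Of 54 other genes of the pathway, 50 were tested in culture and 51 in every tumor comparison, and Gpx2, Gsta3 and Gstm3 did not pass the filter anywhere. In culture 8 of the 50 were DE (16%, background 22.9%). Mgst1, Txnrd2, Cbr1, Cbr3 and Aldh3a1 were higher in Colon 26, and Ggt1, Idh1 and Nqo2 were lower. In tumors all DE calls were lower in Colon 26, 4 of 51 at 100 mm3 (7.84%), 4 at 400 mm3 (7.84%) and 7 at 800 mm3 (13.7%). The backgrounds of DE lower there were 7.06%, 7.79% and 7.62%, and their median log2 differences were -0.17, -0.24 and -0.25.

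**Figure D4:**
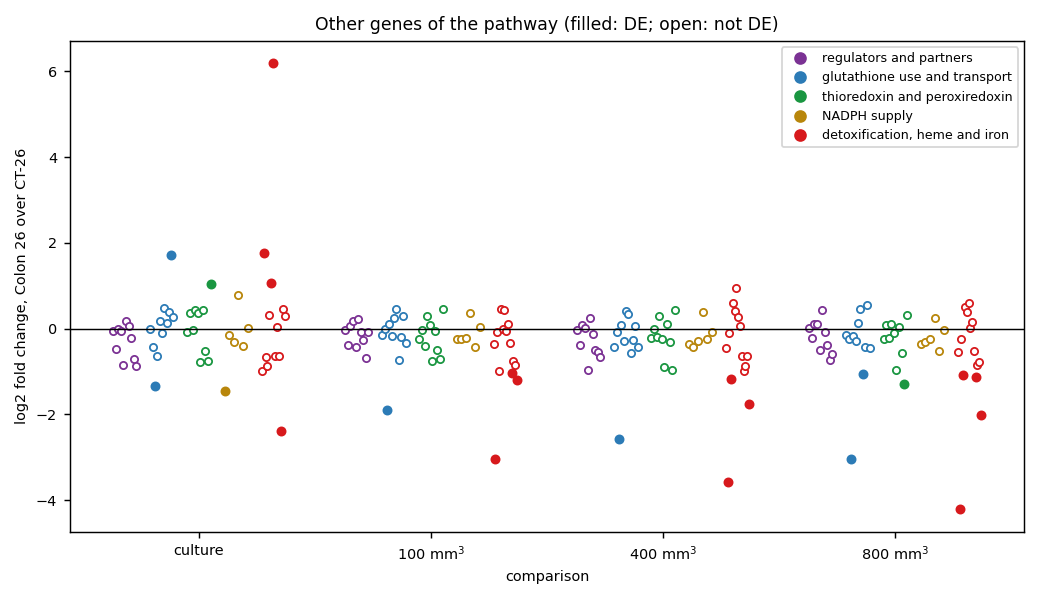
Log2 fold change of Colon 26 over CT-26 for the tested genes of 5 lists of the pathway, in culture and at the 3 tumor sizes. Filled points are DE and open points are not. In tumors the filled points all lie below 0, down to -4.21 for Aldh3a1 at 800 mm3, and the highest point in culture is Cbr3 at 6.19.

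Aldh3a1, an aldehyde dehydrogenase, was higher in Colon 26 culture and lower in Colon 26 tumors. In culture the difference was 1.75 ± 0.07 (adjusted p = 6.2e-13), at 24.6 to 26.3 CPM against 6.66 to 8.1 CPM. In tumors the log2 differences were -3.04 ± 0.24, -3.57 ± 0.59 and -4.21 ± 0.50 (adjusted p = 1.8e-05, 0.0013 and 7.1e-05). At 800 mm3 this was 1.5 to 6.06 CPM in Colon 26 against 27.2 to 101.9 CPM in CT-26. The interaction from culture to 100 mm3 was -4.79 ± 0.29 (adjusted p = 3.6e-08).

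Ugt1a6a, a glucuronidating enzyme, was lower in Colon 26 tumors by log2 -1.19, -1.75 and -2.01 (adjusted p = 0.00085, 0.00066 and 0.00021), while in culture it was 0.29 ± 0.04 higher. Genes of the Ugt1a locus share exons, so its reads could be split between them. Ggt1, gamma-glutamyltransferase of glutathione breakdown, was lower in Colon 26 in culture (-1.34 ± 0.05) and in tumors (-1.89 ± 0.22, -2.57 ± 0.33 and -3.04 ± 0.29), and all 4 were DE. Nqo2, the relative of Nqo1, was lower in Colon 26 culture by log2 -2.39 ± 0.04, at 41 to 45.2 CPM against 214.5 to 236.0 CPM, the reverse of Nqo1. In tumors its differences were -1.03, -0.997 and -1.14, of which the first and the third were DE. Blvrb, biliverdin reductase B, was at -0.87, -0.99, -1.18 and -1.07, the last 2 DE.

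Cbr3, a carbonyl reductase, had at most 3 counts in each CT-26 culture and 2.19 to 2.48 CPM in the Colon 26 cultures. Against a floor of 3 counts per library it was at least 18.9-fold higher in Colon 26. At 800 mm3, Gstm1 (-1.05 ± 0.12) and Txnip (-1.30 ± 0.16) were also DE. The list of 10 regulators and partners of Nrf2 held 0 DE calls in culture and at 100, 400 and 800 mm3. The backgrounds were 22.9%, 13.2%, 14.3% and 14.1%. By the adjusted p alone 7, 6, 6 and 6 of the 10 passed, beside 82.6%, 56.5%, 52.2% and 59.4% of all genes. Bach1, a repressor at the same elements, was within 0.05 of 0 on the log2 scale in culture and at each size, and Mafg was higher in Colon 26 by 0.19 to 0.43, past the adjusted p alone in all 4 comparisons.

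From culture to 100 mm3, 14 of the 51 genes were DE in CT-26, a share of 27.5% under the background of 32.2%, and 12 in Colon 26, a share of 23.5% under the background of 26.9%. Sqstm1, the p62 adaptor that binds Keap1, fell in both models by log2 -2.09 ± 0.11 and -1.23 ± 0.05. Ggt1 (-3.76 and -4.23), the exporter Abcc4 (-2.35 and -1.87) and mitochondrial Txn2 (-1.12 and -1.05) fell in both. Mgst1 (5.05 and 3.67), the carbonyl reductase Cbr1 (2.49 and 1.49) and the iron exporter Slc40a1 rose in both. Slc40a1 had at most 3 counts in every culture and was at least 16.9-fold and 14.9-fold higher in the tumors. These 3 genes rose together with the macrophage, fibroblast and endothelial markers, and the part of host cells was not tested. In growth comparisons none of the 51 was DE in either model. The backgrounds were 0% at 400 and 800 mm3 in CT-26, and 0.0131% and 1.33% in Colon 26, so a count of 0 says little about these genes. The alternative fits were not read out for the 51.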

How the data were processed

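Poly-A RNA of 6 cultures and 24 tumors was sequenced in pairs on a HiSeq X. With Array Studio and the annotation of Ensembl release 78, the authors made gene-level estimated counts without normalization, and FPKM, and deposited both. Per the submitters' notes they tested with DESeq2 1.24.0. The aligner, genome build and strand handling are not given in the sources used here. Of the non-zero deposited estimated counts 23.0% were not whole, and they were rounded here, although the designs had spoken of counts. No column of a library was left unused (0 columns).

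Groups came from the labels of model, tissue and size. The labels give each tumor its own volume but name no animal or culture passage, so that p-values measure the spread between these samples. Models were compared in edgeR 4.0.16 (limma 3.58.1, R 4.3.3) by the quasi-likelihood test with TMM factors, filterByExpr and Benjamini-Hochberg adjustment over all genes tested, with only the libraries compared in each fit. The standard error is the absolute log2 fold change over the root of F. Changes of a difference were interaction terms. CPM of levels used factors over 30 libraries, with a prior count of 2 for log2 CPM. Thresholds were those of the study. Alternatives were DESeq2 1.42.0, median-of-ratios factors, library size only, no filter, a joint fit of all 30 libraries, a minimum of 10 counts in every library, an adjusted p of 0.05, and leaving out each library. Other work used Python 3.11.15, numpy 2.4.6, pandas 2.3.3, scipy 1.17.1 and matplotlib 3.10.9. Symbols matched 52207 of 53431 identifiers (97.7%) in the GENCODE annotation of GRCm38.

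The 10 genes and the lists of pathway genes and cell type markers were chosen with earlier results of these data known. Named were all 10 genes, from each pathway list at most 4 genes DE in at least 2 of the 4 model comparisons and at most 3 DE between culture and tumor in both models, list genes behind a count of 5 or fewer, and for Nqo1 and Hmox1 the 3 genes of highest correlation among those with a mean CPM of at least 5. Slc3a2, Bach1, Mafg, Gstm1, Txnip, Ahr, Cyp1a1, Cyp1b1, Tiparp, Ahrr and Arnt were named after their values were seen. The test was tried on simulated counts with 200 genes changed by a log2 fold of 2 or 3 in either direction. It recovered 191 (95.5%) in culture with 9 false calls of 14067 genes, and 182 (91.0%) at 100 mm3 with 9 of 15185. Smaller changes were not simulated, so these shares do not apply to them. Depth and floors of 3 counts cover counting error only, since reads carry no molecular identifiers.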

Additional observations from a re-analysis of the deposited data

Results flagged for a closer look

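A total of 3 single values stood apart from their group among 60 groups of 4 tumors checked by Dixon's test, the number that chance alone gives at 1 in 20. Hmox1 was 243.8 CPM in replicate 1 of CT-26 at 800 mm3, Srxn1 was 110.4 CPM in replicate 1 of CT-26 at 100 mm3, and Srxn1 was 64.3 CPM in replicate 4 of Colon 26 at 800 mm3.

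Between culture and 100 mm3, the model difference itself changed in a tested interaction for these genes. The log2 change was -5.16 for Nqo1, 2.17 for Hmox1 and -2.13 for Slc7a11. Among the other genes of the pathway it was -1.43 for Mgst1, 1.22 for Idh1, -1.05 for Cbr1, -5.74 for Cbr3, -4.79 for Aldh3a1, -1.47 for Ugt1a6a, 1.36 for Nqo2 and -1.22 for Osgin1. These are 8 of the 51 tested (15.7%), near the background of 17.6% of all genes. The value of Cbr3 rests on CT-26 cultures at the floor of 3 counts and is no bound. Cultures differ in depth between the models, and its part in these changes was not tested.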

How the results depend on the processing

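Over the alternatives other than leaving out a library, 893 of 907 values of single genes kept direction and side of the threshold. Of 91 counts of DE genes among the 10, 85 stayed within 1.5 times, some of them 0 in both settings. Counts over the whole table moved more. From culture to 100 mm3 in CT-26, 4952 genes were DE, and 2527 with at least 10 counts in every library. With at least 10 counts in every library, the DE count among the 10 in culture was 1, because Nqo1 was not tested. With all 30 libraries in one fit and with DESeq2, the growth counts of CT-26 at 400 and 800 mm3 were each 1, through Nqo1 (1.30, adjusted p = 0.038, and 1.31, adjusted p = 0.092; 1.79, adjusted p = 0.046, and 1.78, adjusted p = 0.019). With DESeq2 the count of changed model differences from 100 to 800 mm3 was 1 (Nqo1, -2.03). The cause was not tested.

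Uncalled values near 0 turned sign. Gclc in culture was 0.01 without a filter, and G6pdx at 100 mm3 was 0.01 with library size only. Keap1 at 800 mm3 was 0.01 with median-of-ratios factors, 0.06 with library size only, 0.02 without a filter, 0.01 with at least 10 counts, 0.00 with all libraries and 0.01 with DESeq2. Keap1 of CT-26 at 400 against 100 mm3 was -0.01 with library size only.

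Leaving out each library in turn, the DE count ranged from 1 to 2 at 400 mm3 between the models and from 0 to 1 for the change of the model difference from 100 to 800 mm3 (Nqo1 -2.26, adjusted p = 0.095, and -2.29, adjusted p = 0.043, without replicate 1 of CT-26 at 100 or at 800 mm3). Gclc at 800 mm3 passed the fold threshold at -1.01 and -1 without replicate 1 or 2 of CT-26. Uncalled differences between the models that turned sign ranged from -0.07 to 0.06 for G6pdx, -0.40 to 0.29 for Hmox1 and -0.18 to 0.01 for Keap1 at 100 mm3, from -0.86 to 0.17 for Nqo1 at 400 mm3, and from -0.38 to 0.80 for Hmox1 and -0.06 to 0.02 for Keap1 at 800 mm3. Growth changes in CT-26 ranged from -0.15 to 0.53 for Hmox1 and -0.06 to 0.13 for Keap1 at 400 mm3, and from -1.05 to 0.16 for Hmox1 at 800 mm3. In Colon 26 they ranged from -0.02 to 0.19 for Nqo1, -0.13 to 0.33 for Slc7a11 and -0.15 to 0.03 for Srxn1 at 400 mm3, and from -0.52 to 0.17 for Hmox1 and -0.06 to 0.01 for Keap1 at 800 mm3. Changes of the model difference ranged from -0.16 to 0.03 for Keap1 and -0.11 to 0.05 for Nfe2l2 from 100 to 400 mm3, and from -0.22 to 0.98 for Hmox1 and -0.03 to 0.17 for Keap1 from 100 to 800 mm3.

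No paired analysis was possible because the labels carry no replicate numbers that could link libraries across groups. Between culture and 100 mm3 the median log2 change over genes was 0.191 in Colon 26 and 0.135 in CT-26 with DESeq2, against 0.05 and 0.06. The DESeq2 medians cover every gene given a fold change, so the sets of genes differ. In edgeR without a filter the medians were 0.121 and 0.106. The low level of Nqo1 in CT-26 (as few as 7 counts) and 3 or 4 libraries a group limit the smallest differences that could be seen.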

Other observations

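Nqo1, Aldh3a1 and Ugt1a6a also belong to the battery of genes known to answer to the aryl hydrocarbon receptor, and the levels of Ahr, its gene, were looked up after their values had been seen. Ahr had 37.8 to 39.5 CPM in CT-26 and 64.5 to 68.6 CPM in Colon 26 cultures, higher by 0.75 ± 0.04 (adjusted p = 1.6e-11). In tumors of 100 mm3 it had 40.7 to 56.8 CPM in CT-26 and 26.2 to 30 CPM in Colon 26, and the log2 differences were -0.79 ± 0.10, -0.91 ± 0.25 and -0.82 ± 0.18 at the 3 sizes (adjusted p = 0.0002, 0.017 and 0.003). The interaction from culture to 100 mm3 was -1.53 ± 0.13 (adjusted p = 5.2e-07). Cyp1a1, the standard readout of that receptor, was not past the filter in any comparison, with at most 0.534 CPM in a library. Cyp1b1, Tiparp and Ahrr are also known to answer to the receptor. Cyp1b1 was higher in Colon 26 tumors of 100 mm3 (1.27 ± 0.30, adjusted p = 0.0069) and 800 mm3 (0.95 ± 0.35, adjusted p = 0.041), and was at -0.01 at 400 mm3 and at most 1 count in each culture. Tiparp was at 0.02 in culture and at log2 -0.37, -0.72 and -0.07 in tumors (adjusted p = 0.064, 0.058 and 0.55). Arnt, the partner of Ahr, was at -0.25 in culture and at 0.13, 0.09 and 0.26 in tumors (adjusted p = 4.9e-06, 0.11, 0.63 and 0.0084). Ahrr was at -0.06 and -0.04 at 400 and 800 mm3 and did not pass the filter in culture or at 100 mm3. The part of the receptor in the levels of Nqo1, Aldh3a1 and Ugt1a6a was not tested.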
